A study of Homo sapiens with 4 samples.

Results

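The solute carrier family 25 (SLC25) genes encode the mitochondrial carriers, and they were described here through the acetylated enhancer regions that the deposited tables name for them. Members were all rows whose gene name starts with SLC25A in the 4 tables of the series. This gave 72 of 45672 regions, named for 27 of the 13171 genes with a region in any table. Of the 27 names, 23 are carrier genes, 3 are pseudogenes (SLC25A3P1, SLC25A51P1 and SLC25A51P4) and 1 is an antisense RNA (SLC25A30-AS1). RefSeq lists 48 protein-coding SLC25A genes on the main chromosomes, so 25 carriers had no region of their own name. The same share over all protein-coding genes was not counted, so this number describes the family only. Carriers of the same fold with other names, the UCP and MTCH genes, are not counted among them.

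Most carriers of this family sit in the inner mitochondrial membrane and exchange metabolites, nucleotides, cofactors or ions between the cytosol and the matrix. They share a fold of repeated pairs of membrane helices. The malate-aspartate shuttle, ATP export, citrate export, iron import for haem and iron-sulphur clusters, and NAD import all depend on members. Acetylation of histone H3 at lysine 27 (H3K27ac) marks active enhancers and promoters, and a region named for a gene is marked chromatin that the deposited annotation assigns to it, at any distance, not a measure of its expression.

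The cells were Kasumi-1, a human acute myeloid leukaemia line with the t(8;21) translocation that fuses RUNX1 to RUNX1T1. All samples were treated with CRISPR/Cas9, either with a non-targeting guide (sgNT, genotype WT in the labels, 2 samples) or with a guide against SETD8 (sgSETD8, genotype SETD8 knockout, 2 samples). SETD8, also called KMT5A, adds a single methyl group to histone H4 at lysine 20, and whether cells were pools or clones is not given in the sources used here. H3K27ac was profiled by CUT&Tag, where an antibody guides a transposase to marked chromatin, from 100000 cells a library. The design text of the series names H3K27me1, while every sample label names H3K27ac. The tables form a sparse pair (5186 sgNT and 7276 sgSETD8 regions) and a dense pair (15149 and 18061 regions), told apart by their region identifiers. The sparse sgNT table is read as sgNT because its identifiers carry the cell line name and no guide. Read depth is unknown and a pair holds 1 table of each group, so no value has a replicate error within its pair. With 2 tables against 2 the smallest exact two-sided permutation p is 0.333, so no p-value is given. The labels do not state whether a group's samples came from separate cultures. Of 9 genes of the myeloid progenitor state, 7 had a region in dense sgNT and 8 in dense sgSETD8, LYZ being without one in both, against 4 and 5 of 11 genes of other lineages. In the sparse pair the counts were 5 in sgNT and 8 in sgSETD8, against 1 and 2 of the other lineages. RUNX1T1, CD33 and LYZ lacked a region in sparse sgNT, and SPI1 lacked one in both sparse tables.

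The dense tables covered the start sites of few carriers, and few of their regions lay near any start. Of all regions, 5.83% in dense sgNT and 5.56% in dense sgSETD8 lay within 2500 bp of a start. The lists are of enhancer regions, and whether promoter peaks were left out is not stated. A promoter without a region is therefore not shown to lack the mark, and one inside a joined region need not hold a peak. Of the 40 carrier genes with an entry in the RefSeq promoter table (GRCh38.p14), 4 had a promoter window of 300 bases touched by a dense sgNT region (10.0%) and 3 by a dense sgSETD8 region (7.5%). The shares over all 27305 gene names of that table were 7.96% and 9.26%. No carrier promoter was touched in a sparse table, where the shares over all names were 0.414% in sgNT and 0.216% in sgSETD8. An absence among 40 carriers is therefore no trait of the family. SLC25A3, SLC25A25 and SLC25A40 were touched in both dense tables and SLC25A45 in sgNT only. The 250 bases before each start are shown 5' to 3' because these are the carrier promoters that a dense region touched, and capitals mark the motifs searched:
SLC25A3: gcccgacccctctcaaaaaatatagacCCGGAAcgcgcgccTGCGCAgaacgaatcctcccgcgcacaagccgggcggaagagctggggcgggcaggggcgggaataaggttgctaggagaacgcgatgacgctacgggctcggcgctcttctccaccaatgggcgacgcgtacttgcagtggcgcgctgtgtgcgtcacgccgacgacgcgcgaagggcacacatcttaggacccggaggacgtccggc
SLC25A25: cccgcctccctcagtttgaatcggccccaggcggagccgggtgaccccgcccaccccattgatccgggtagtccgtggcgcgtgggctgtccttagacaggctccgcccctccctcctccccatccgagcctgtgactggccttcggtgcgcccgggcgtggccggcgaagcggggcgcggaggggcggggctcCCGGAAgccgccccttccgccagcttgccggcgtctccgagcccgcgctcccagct
SLC25A40: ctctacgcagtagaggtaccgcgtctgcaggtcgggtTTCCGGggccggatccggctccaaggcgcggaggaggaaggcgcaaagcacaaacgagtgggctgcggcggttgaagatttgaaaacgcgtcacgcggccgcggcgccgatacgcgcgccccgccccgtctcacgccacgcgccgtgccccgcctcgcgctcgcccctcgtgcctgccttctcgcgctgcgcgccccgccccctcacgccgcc
SLC25A45: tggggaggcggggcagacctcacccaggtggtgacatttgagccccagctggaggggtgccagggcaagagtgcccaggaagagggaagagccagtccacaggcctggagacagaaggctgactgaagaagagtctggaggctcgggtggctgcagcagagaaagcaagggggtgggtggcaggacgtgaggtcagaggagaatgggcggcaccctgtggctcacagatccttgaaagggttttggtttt
They lie at chr12:98593436-98593685 on the plus strand, chr9:128067982-128068231 on the plus strand, chr7:87876361-87876610 on the minus strand and chr11:65382647-65382896 on the minus strand. Both strands were searched for the ETS core CCGGAA, the NRF1 core TGCGCA and the RUNX cores TGTGGT and TGCGGT, none of which overlaps another in these 4 sequences. SLC25A3 holds 1 ETS and 1 NRF1 match, SLC25A25 and SLC25A40 hold 1 ETS match each, and SLC25A45 holds no match. Among 35116 RefSeq windows of the same length 14.5% hold the ETS letters, 6.89% the NRF1 letters and 16.3% the RUNX letters. Among the 60 windows of SLC25A names 18 hold the ETS letters (30%), 5 the NRF1 letters (8.33%) and 9 the RUNX letters (15%). A match describes letters only.

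The number of regions named for the family differed little between the guides. The sparse pair held 9 sgNT and 11 sgSETD8 regions, a ratio of 1.22 with a log2 value of 0.29 (exact binomial 95% interval -1.12 to 1.74). The dense pair held 27 and 25, a ratio of 0.926 with a log2 value of -0.11 (interval -0.96 to 0.73). Over all regions the ratios were 1.40 and 1.19, both inside the intervals of the family, which cover the counting of regions only. The mean log2 ratio of the family over the pairs was 0.089 ± 0.28 (SD, n = 2 pairs), smaller than its spread. The sparse surplus in sgSETD8 rested on pseudogene names. SLC25A51P1 had 0 sgNT and 4 sgSETD8 regions and SLC25A51P4 had 0 and 1, while the carrier genes alone had 8 and 6. In the dense pair the carrier genes had 24 and 23.

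SLC25A12 was the single member with a region in all 4 tables, 8 members had regions in 3, 9 in 2 and 9 in 1. The same spread over all genes was not counted, so these numbers describe the members only. In the dense pair 16 of the 23 names with a region had one in both groups. In sgSETD8 only, 3 of 23 names had a region, among them SLC25A48 and SLC25A52 (13.0%, against 20.5% of the 10826 genes with a dense region). SLC25A1, SLC25A15, SLC25A20 and SLC25A45 were named in sgNT only (4 of 23, 17.4%, against 11.4% of those genes). In the sparse pair 3 of 13 names were found in both groups, among them SLC25A10 and SLC25A12. The sgSETD8-only names were SLC25A26, SLC25A36, SLC25A51 and the pseudogenes SLC25A51P1 and SLC25A51P4 (5 of 13, 38.5%, against 45.9% of 7397 genes). The sgNT-only names were SLC25A18, SLC25A24, SLC25A25, SLC25A47 and SLC25A30-AS1 (5 of 13, 38.5%, against 28.8%). No name was confined to sgSETD8 in both pairs, and none to sgNT in both pairs. How many of all genes were so confined was not counted.

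**Figure D1:**
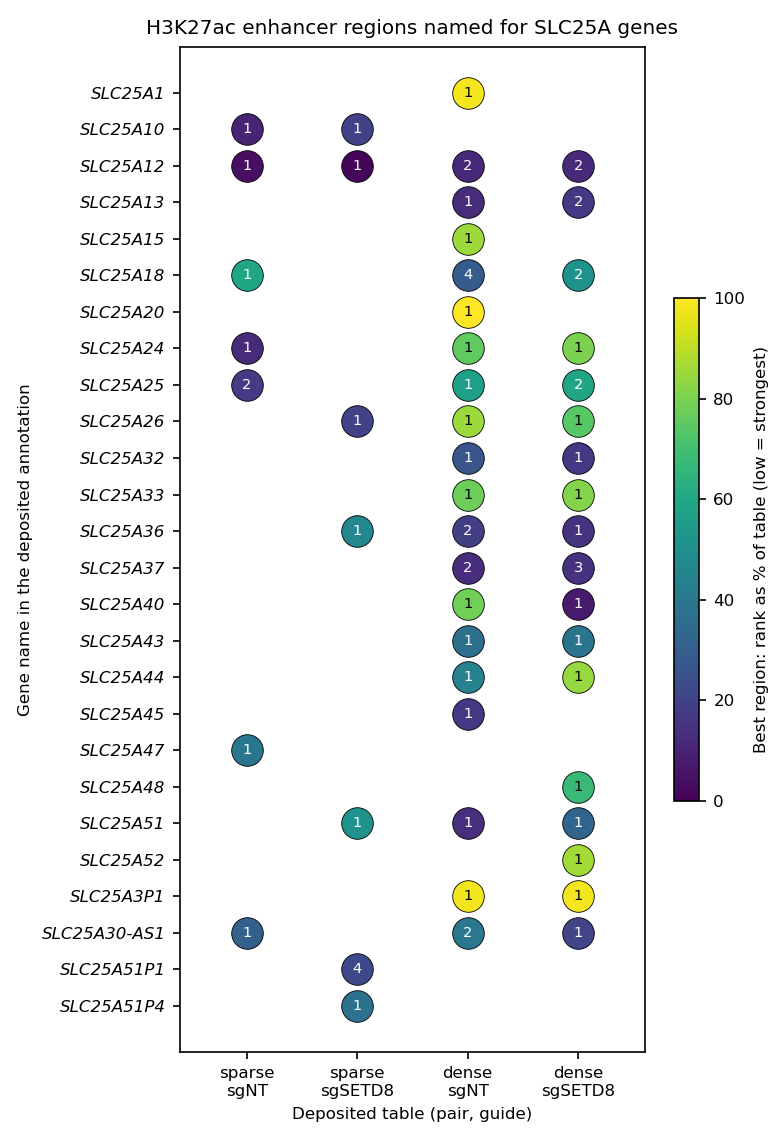
Each row is a name starting with SLC25A, 1 name being left out, and each column a deposited table. A circle marks a name with a region, the digit gives the number of regions and the colour the rank of the best one as a percentage of its table. SLC25A12 is the row filled in all 4 columns, and most rows have circles in the dense columns only.

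The aspartate/glutamate carriers, which move reducing power into mitochondria as part of the malate-aspartate shuttle, held the most widely found member region. SLC25A12 (aralar, the carrier of nerve and muscle) had a region in its intron 12 in every table. It ran from 171798085 to 171799119 on chromosome 2 in sparse sgNT (1.03 kb, density 11.9 per bp, rank 183) and from 171798045 to 171799817 in sparse sgSETD8 (1.77 kb, density 5.52, rank 109). Density here is the authors' signal divided by the width, on a scale that is not stated. In the dense pair the region was 16.1 kb with 6 peaks in sgNT (171788744 to 171804797, rank 1658) and 10.2 kb with 3 peaks in sgSETD8 (171789668 to 171799915, rank 2129). A second SLC25A12 region in intron 2 went the other way, with 5.48 kb in sgNT (171878458 to 171883934, rank 5580) and 12.1 kb in sgSETD8 (171878571 to 171890706, rank 4985). In the dense pair, then, the intron 12 region was wider with sgNT and the intron 2 region with sgSETD8, while in the sparse pair the intron 12 region was wider with sgSETD8.

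SLC25A13 (citrin, the aspartate/glutamate carrier of liver) had no sparse region. Dense sgNT held 1 region of 32.3 kb with 8 peaks over its first introns (chromosome 7, 96287189 to 96319506, rank 1844). Dense sgSETD8 held 2 shorter ones in its place, 13.7 kb with 5 peaks (96303355 to 96317086, rank 3018) and 2.46 kb with 1 peak (96285519 to 96287977, rank 7147). Covered length at the locus was 16.2 kb with sgSETD8, a ratio of 0.501, with 6 peaks against 8. The 2 sgSETD8 regions reach near both ends of the sgNT region, and the stretch between them was not joined. Width counts joined stretches between peaks, so the ratio does not measure marked bases alone. A second region inside SLC25A13, named for MIR591, was 18.2 kb in sgNT (rank 3030) and 42.4 kb in sgSETD8 (rank 1704), so the gene was not covered less throughout.

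SLC25A18, a mitochondrial glutamate carrier, had 4 dense sgNT and 2 dense sgSETD8 regions. The largest, 12 kb with 3 peaks over its own introns (chromosome 22, 17566626 to 17578576, rank 4372), was in sgNT only, and the nearest sgSETD8 region lay 7836 bp away. Another sgNT region of 5.63 kb (17502971 to 17508599, rank 7358) and 1 of 0.988 kb (17485588 to 17486575, rank 9641) also had no sgSETD8 counterpart. Conversely, a region of 0.426 kb (17558365 to 17558790, rank 15129), 4862 bp upstream of the start, was in dense sgSETD8 only. A region of under 1 kb was shared by both dense tables and sparse sgNT, at 17528806 to 17529673 in dense sgNT (density 1.45) and 17528686 to 17529644 in dense sgSETD8 (density 1.13). In sparse sgNT it ran from 17529148 to 17529599 (rank 3070). The shared locus and the sgNT-only regions of 5.63 and 0.988 kb lie in introns of CECR2, a neighbouring gene, and of all these regions the one of 12 kb overlaps SLC25A18 itself.

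**Figure D2:**
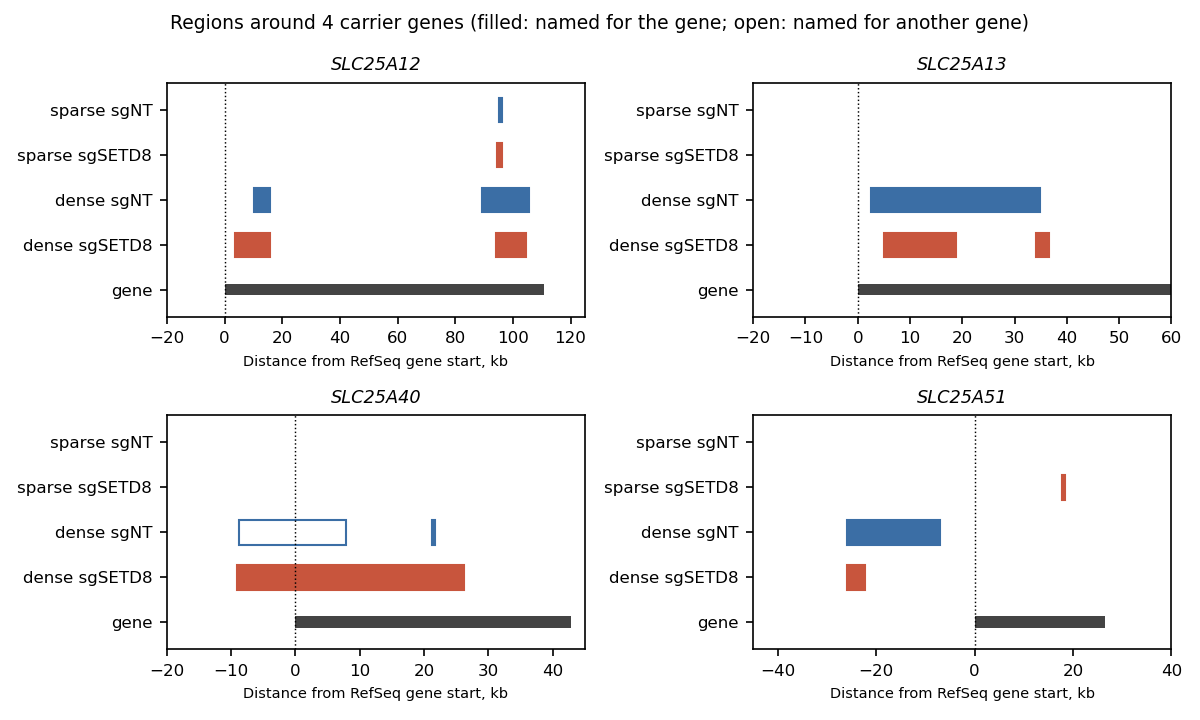
Horizontal bars show the regions of each table against the distance in kb from the RefSeq start of 4 carrier genes, downstream to the right, with the gene in dark grey, and the SLC25A13 panel ends before the end of the gene. Filled bars are named for the gene and open bars for another gene. The region near 95 kb in SLC25A12 is in all 4 tables, and the single sgSETD8 bar at SLC25A40 spans 2 sgNT bars.

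Carriers of nucleotides and cofactors followed. SLC25A51 imports NAD into mitochondria. Its dense region in an intron of the neighbouring gene SHB was 18.9 kb with 5 peaks in sgNT (chromosome 9, 37911188 to 37930085, rank 2050) and 3.64 kb with 2 peaks in sgSETD8 (37926427 to 37930061, rank 5800), a ratio of 0.192. The density was 0.625 and 0.779 per bp, so the narrower sgSETD8 region was the denser. Its whole signal as deposited was 2833 with sgSETD8 against 11817 in sgNT, so the higher density came with less signal in all. Whether the 2 tables share a scale of signal is not stated. Sparse sgSETD8 alone had a region inside SLC25A51 (37885841 to 37886302, 0.462 kb, rank 3675), which no dense table covered. SLC25A52, a second NAD carrier, had 1 short dense sgSETD8 region 31597 bp upstream of its start (rank 15553).

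The pyrimidine nucleotide carriers SLC25A33 and SLC25A36 were named in both dense tables. The SLC25A36 region of intron 1 was nearly the same in both, 11 kb with 5 peaks in sgNT (chromosome 3, 140945080 to 140956074, rank 2814) and 10.8 kb with 4 peaks in sgSETD8 (140945896 to 140956675, rank 2782). A second SLC25A36 region of 0.394 kb was in dense sgNT only (rank 14554), and a sparse sgSETD8 region lay 55765 bp upstream of the gene (rank 3330) where no dense table had one. SLC25A33 had a different region of under 1 kb in each dense table, 5616 bp apart, so its presence in both groups by name was not presence at 1 place (ranks 11743 and 14745).

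SLC25A32 transports FAD or folate. Its dense region was 13.7 kb with 3 peaks in sgNT (chromosome 8, 103393093 to 103406764, rank 3984) and 18.2 kb with 5 peaks in sgSETD8 (103391696 to 103409861, rank 2874). SLC25A26, the S-adenosylmethionine carrier, had overlapping dense regions of 0.63 kb in sgNT and 0.879 kb in sgSETD8 (ranks 12893 and 13355) and a sparse sgSETD8 region at another place (chromosome 3, 66198488 to 66199228, rank 1441).

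Iron and glutathione carriers were found in the dense pair only. SLC25A37 (mitoferrin 1, the iron importer of blood precursors) had a region over its first intron, 11.6 kb with 4 peaks in sgNT (chromosome 8, 23525312 to 23536957, density 1.06, rank 1949) and 10.3 kb with 4 peaks in sgSETD8 (23525498 to 23535770, density 0.803, rank 2557). Its second region, in intron 2, was 10.5 kb with 2 peaks in sgNT (rank 2923) and 12 kb with 4 peaks in sgSETD8 (rank 2685). Both SLC25A37 regions were thus kept in place with widths within a ratio of 0.882 to 1.14. A further SLC25A37 region, of 0.524 kb and upstream of the gene, was in sgSETD8 only (rank 14202). SLC25A28, the other mitoferrin gene, had no region.

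SLC25A40, one of the glutathione carriers, had the best-ranked dense region of the family with sgSETD8 and a low one with sgNT. The sgSETD8 region was 35.3 kb with 6 peaks over the gene start (chromosome 7, 87850177 to 87885487, rank 1235). In sgNT the same stretch held a region of 0.359 kb named for SLC25A40 (87854795 to 87855153, rank 11850) and a region of 16.7 kb with 4 peaks named for the neighbouring DBF4 (87868469 to 87885121, rank 1821). The sgNT regions covered 17.0 kb with 5 peaks in all. The change of rank under the name SLC25A40 therefore came with the joining of 2 regions, while the numbers of peaks were 5 and 6. SLC25A39, the paralogue, had no region.

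The calcium-regulated ATP-Mg/phosphate carriers adjust the adenine nucleotide content of the matrix. SLC25A25 had a region in intron 1 in both dense tables, 0.812 kb in sgNT (chromosome 9, 128094180 to 128094991, density 1.26, rank 8523) and 0.999 kb in sgSETD8 (128094068 to 128095066, density 0.733, rank 10589). Sparse sgNT held it too (128094108 to 128094844, density 4.58, rank 901), together with a second one (128072227 to 128072772, rank 1899) that lies within dense regions named for NAIF1, while sparse sgSETD8 held neither. Another SLC25A25 region, of 0.452 kb (128107958 to 128108409, rank 16984), was in dense sgSETD8 only. SLC25A24 had a dense region in intron 6 of 0.618 kb in sgNT and 0.373 kb in sgSETD8 (ranks 11435 and 14527). Its sparse sgNT region (chromosome 1, 108106942 to 108108167, density 3.88, rank 637) lies 85281 bp from its start, inside dense regions named for VAV3 that rank 139 in sgNT and 145 in sgSETD8. The ADP/ATP carriers SLC25A4, SLC25A5, SLC25A6 and SLC25A31 had no region in any table. Absence was common, as 32.7% of 20033 protein-coding gene spans were covered in dense sgNT and 35.8% in dense sgSETD8. The phosphate carrier SLC25A3 had none by name, but a region named for SNORA53 covered it in both dense tables, with 30.1 kb in sgNT (rank 1417) and 20.4 kb in sgSETD8 (rank 1567).

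Among carriers of carboxylates, amino acids and acylcarnitine, single short regions prevailed. SLC25A10, the dicarboxylate carrier, had 6.18 kb in sparse sgNT (chromosome 17, 81735607 to 81741790, rank 516) and 0.597 kb in sparse sgSETD8 (81741274 to 81741870, rank 1424), and no dense region covered either. SLC25A1, the citrate exporter, SLC25A15, the ornithine carrier, and SLC25A20, the carnitine/acylcarnitine carrier, each had 1 dense sgNT region of 0.328 to 0.474 kb and none with sgSETD8 (ranks 14882, 12947 and 15109). SLC25A44, a carrier of branched-chain amino acids, had a dense sgNT region of 4.21 kb (chromosome 1, 156198916 to 156203126, rank 6628). In sgSETD8 that place was covered by 11.9 kb named for PMF1 (156198923 to 156210772, rank 4966), and the region named for SLC25A44 was another, of 0.44 kb (rank 15171).

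For the remaining names no role is given here. SLC25A45 had a dense sgNT region of 12.8 kb with 3 peaks over its start (chromosome 11, 65378169 to 65390995, rank 2475), where sgSETD8 had 1.51 kb with 1 peak, named for FRMD8 (65388730 to 65390240, rank 7606). Among the 17 member loci covered in both dense tables this one had the lowest ratio of covered length, sgSETD8 to sgNT, at 0.118, and the promoter printed for SLC25A45 lies in the part covered in sgNT only. SLC25A43 had a region of 2.85 kb with sgSETD8 (rank 6945) and of nearly the same width with sgNT (rank 5460), a ratio of 0.998. SLC25A47 had a region in sparse sgNT only (rank 2030) and SLC25A48 in dense sgSETD8 only (rank 12149). SLC25A30-AS1 regions all overlap SLC25A30, which is related to the uncoupling proteins. The region there was 1.78 kb with 1 peak in dense sgNT (chromosome 13, 45395277 to 45397056, density 1.42) and 22.1 kb with 3 peaks in dense sgSETD8 (45386067 to 45408186, density 0.252), with sparse sgNT covering 0.992 kb of it. A second region there, of 0.443 kb (45414723 to 45415165, rank 13150), was in dense sgNT only. The 4 regions named for SLC25A51P1 in sparse sgSETD8 lie 338666 to 1109656 bp from that pseudogene on chromosome 6, and overlap no region of another table. SLC25A3P1 had a different short region in each dense table, 23609 bp apart.

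Grouping the dense regions by place gave 36 loci with a member name, where regions of either group that overlap form 1 locus. Both groups covered 17 of them, and the ratio of covered bases, sgSETD8 to sgNT, ran from 0.118 at SLC25A45 to 12.4 at SLC25A30-AS1 with a median of 1.10, against 1.09 over all 10646 shared loci. The ratio passed 1.5 in favour of sgSETD8 at 4 of the 17 (23.5%, against 32.3% of all shared loci), the loci of SLC25A40, SLC25A12 intron 2, SLC25A44 and SLC25A30-AS1. It passed 1.5 in favour of sgNT at 5 (29.4%, against 17.8%), those of SLC25A45, SLC25A51, SLC25A13, SLC25A24 and SLC25A12 intron 12. With 17 loci these shares are counts of 4 and 5, and the threshold was chosen after seeing the data. Covered bases include stretches joined between peaks, so joining or splitting alters the ratio, as at SLC25A13 and SLC25A40.

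**Figure D3:**
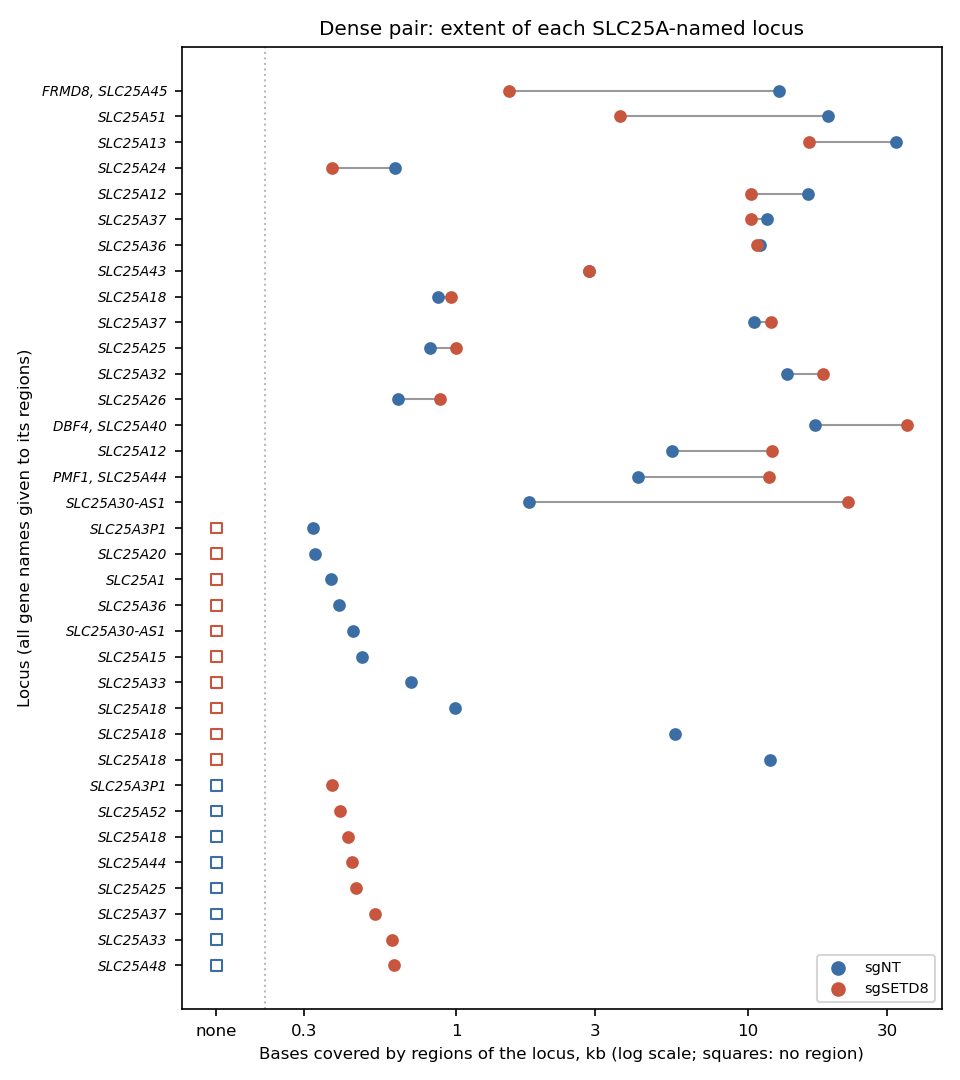
Each row is a locus of the dense pair with a member name, 1 locus being left out, and points give the bases covered in kb (log scale) in sgNT (blue) and sgSETD8 (red). Open squares mark no region. The loci in both groups reach 35.3 kb, while all but 2 of the loci in 1 group are under 1 kb.

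Loci found in 1 group were short. The 9 in sgSETD8 only (25% of 36, against 30.4% of all 20231 loci) were single peaks under 1 kb. Of the 10 in sgNT only (27.8%, against 17.0%), 8 were single peaks and under 1 kb, and the exceptions were the SLC25A18 loci of 5.63 and 12 kb. Over all loci in 1 group, 81.2% of those in sgNT and 76.5% of those in sgSETD8 were under 1 kb, so short one-group loci were common to the tables and not a mark of the family. Counted as regions, 10 of 27 dense sgNT regions (37.0%, exact interval 19.4 to 57.6) had no overlapping sgSETD8 region, against 22.7% of the table. For dense sgSETD8 it was 9 of 25 (36.0%, 18.0 to 57.5), against 34.0%. In the sparse pair 7 of 9 sgNT regions (77.8%, 40 to 97.2, against 79.1%) and 9 of 11 sgSETD8 regions (81.8%, 48.2 to 97.7, against 85.1%) had no counterpart. Each family interval holds the share of its table.

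Signal density was compared where regions of the dense tables match in place. Only 2 family regions covered each other by at least 90%, SLC25A43 and the intron 1 region of SLC25A36, among 1769 matched regions. Relative to the median of all matched regions (-0.26), the log2 density ratio was -0.31 at SLC25A43 and 0.16 at SLC25A36, where the SD over matched regions is 0.24. At a cover of at least 50%, 9 family regions of 6011 were matched, with a median of 0.079 and an SD of 0.30 over all. SLC25A25 was lowest (-0.52, percentile 4.64), followed by SLC25A43 (-0.30) and the first SLC25A37 region (-0.14). SLC25A24 (0.46, percentile 94.2), SLC25A12 intron 12 (0.38, percentile 90.5) and SLC25A32 (0.37) were highest. At 50% cover widths differ, so a density ratio also reflects width. SLC25A24 and SLC25A12 intron 12 were narrower with sgSETD8 (width ratios 0.604 and 0.638). Their whole signal as deposited was lower with sgSETD8, 319 against 464 and 9857 against 14293. No median was subtracted from these signals, while the median log2 density ratio over all regions matched at 50% cover was -0.27. SLC25A32 was wider with sgSETD8 (1.33). In the sparse pair the SLC25A12 intron 12 region was the single family match at 50% cover, among 435, and its centred value was -0.44 (percentile 27.4), on the other side of the median from the dense pair. There the sgSETD8 region was the wider, 1.77 against 1.03 kb. Ratios fell on both sides of the median, 5 above and 4 below.

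**Figure D4:**
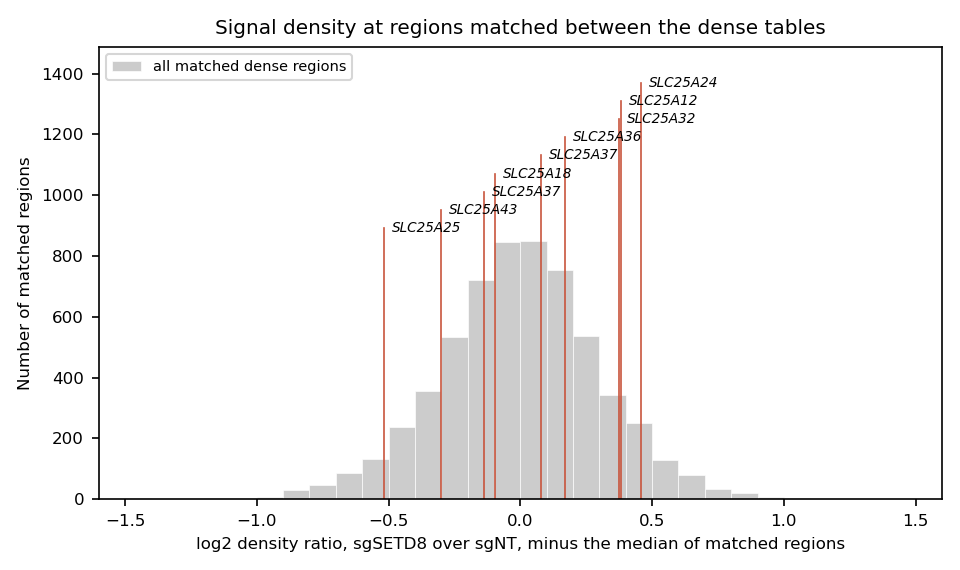
Grey bars count the 6011 dense regions matched at 50% cover by their log2 density ratio, sgSETD8 over sgNT, less the median. Red lines mark the 9 family regions, which spread from -0.52 to 0.46 on both sides of 0.

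Ranks by the authors' signal placed the family near the middle of the dense tables. The median family region stood at 48.6% of the ranked dense sgNT table and at 50.7% of dense sgSETD8, and 0 of 27 and 1 of 25 were in the best-ranked 10% of their table, the exception being SLC25A40. In the sparse pair the medians were 17.4% in sgNT and 37.4% in sgSETD8, with 3 of 9 and 1 of 11 in the best-ranked 10%. SLC25A12 and SLC25A10 were among the 3 of sparse sgNT, and SLC25A12 was the 1 of sparse sgSETD8. Ranks describe 1 table each and do not compare the groups.

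**Figure D5:**
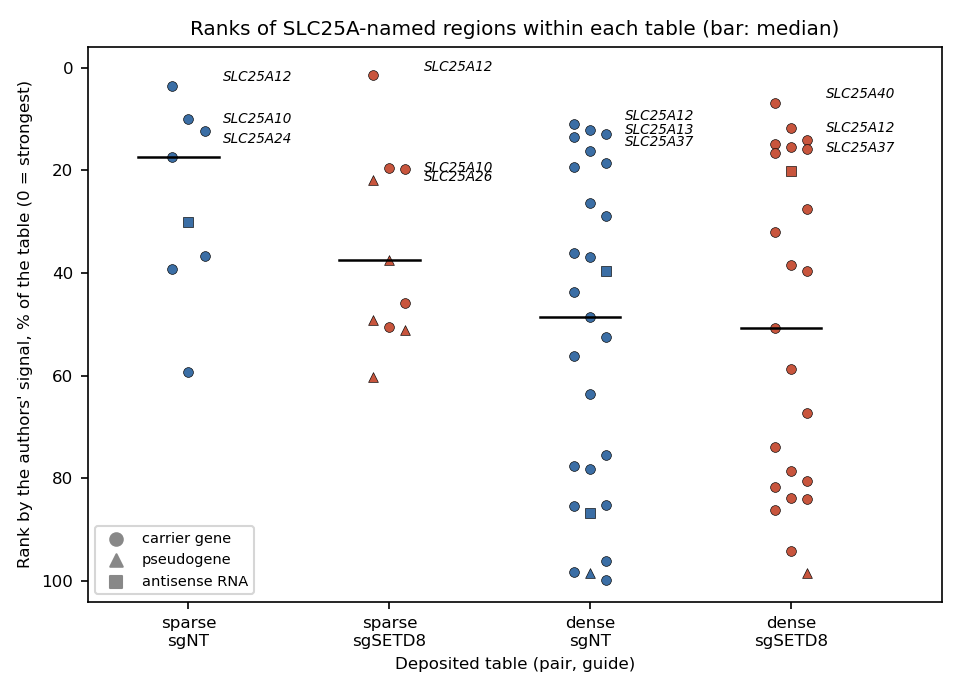
Points are regions with a member name, placed by rank as a percentage of their table, 0 being the strongest, with bars at the medians of all members. Regions of 1 member are left out, symbols separate carrier genes, pseudogenes and the antisense RNA, and the 3 best-ranked regions shown in each table are labelled. Pseudogene regions make up 5 of the 11 regions of sparse sgSETD8.

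The sparse and dense tables overlapped at different shares in the 2 groups. Of the 9 sparse sgNT regions 7 overlapped a region of both dense tables (77.8%, interval 40 to 97.2, against 66.7% of all sparse sgNT regions). Of the 11 sparse sgSETD8 regions 2 did, that of SLC25A12 among them (18.2%, 2.28 to 51.8, against 21.6%). Among carrier genes alone the counts were 6 of 8 and 2 of 6. The family followed its tables here, with each interval holding the share over all regions. Neither dense table was overlapped by 2 of the 9 sparse sgNT regions (22.2%, against 21.0% of all). For sparse sgSETD8 it was 9 of 11 (81.8%, against 70.7%). Most sparse sgSETD8 regions, in the family and in all, thus had no dense region at their place, which limits what the sparse pair can show.

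Names were then set aside and the spans of the 48 carrier genes were asked for any covering region, a reading added after seeing the data. Dense sgNT regions covered 21 spans (43.8%, against 32.7% of 20033 protein-coding genes) and dense sgSETD8 regions 17 (35.4%, against 35.8%). SLC25A1, SLC25A15, SLC25A17, SLC25A18 and SLC25A45 were covered in sgNT only (5 of 48, 10.4%, against 3.82%) and 1 span in sgSETD8 only (2.08%, against 6.87%). The sgNT regions at SLC25A1 and SLC25A17 carry other names, LINC01311 (2.13 kb, rank 7656) and MIR4766 (0.6 kb, rank 11857). SLC25A29, a carrier of basic amino acids, had no region of its own name. In dense sgNT it was covered by 74.2 kb with 20 peaks named for YY1 (chromosome 14, 100212811 to 100286971, rank 388). In dense sgSETD8 it was covered by 0.779 kb named for MIR6764 (100285198 to 100285976, rank 12263), near 1 end of that stretch. What sgSETD8 held over the rest of the stretch was not examined, so these widths do not compare cover at SLC25A29. SLC25A20, named in sgNT only, was covered in both groups through regions named for PRKAR2A-AS1. In the sparse pair SLC25A25, SLC25A29 and SLC25A30 were covered in sgNT only (6.25%, against 6.45%) and SLC25A26 and SLC25A51 in sgSETD8 only (4.17%, against 8.03%). In neither pair did more carrier spans belong to sgSETD8 alone than to sgNT alone, while over all protein-coding genes more did in both pairs. The sparse part of this rests on 2 against 3 spans, and by name the sparse pair was even, at 5 and 5. The difference between the family and other genes was not tested.

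Position within genes was described last. Introns held 23 of 27 dense sgNT regions (85.2%, against 68.3% of the table) and 17 of 25 dense sgSETD8 regions (68.0%, against 67.5%), and intergenic sequence 1 and 5. For the sparse tables, introns held 7 of 9 sgNT regions (77.8%, against 56.1% of the table) and 4 of 11 sgSETD8 regions (36.4%, against 47.3%). A region with a member name overlapped the gene it was named for in 19 of 27 dense sgNT and 15 of 25 dense sgSETD8 cases (70.4% and 60%, against 57.0% and 55.8% of all regions with a RefSeq symbol). In the sparse tables it did so in 3 of 9 and 3 of 11 (33.3% and 27.3%, against 43.2% and 34.9%). SLC25A12, SLC25A25, SLC25A26 and SLC25A51 made up those sparse cases, and the other sparse member regions lay outside the gene they are named for.

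Mitochondrial transport genes whose names do not start with SLC25A were read in the same way from a list of 41 symbols. Among them are uncoupling proteins and MTCH genes, carriers of the same fold, and also porins and calcium uniporter subunits. In the dense pair 23 had a region, 18 of them in both groups. CKMT2, MCU and SFXN1 were named in sgSETD8 only (3 of 23, 13.0%, against 20.5% of all genes with a dense region) and MTCH2 and UCP2 in sgNT only (2 of 23, 8.70%, against 11.4%). MCU, the pore of the calcium uniporter, had 0 dense sgNT regions and 1 dense sgSETD8 region (rank 1396), and 1 region in each sparse table. UCP2, an uncoupling protein and a carrier of the same fold under another name, had 1 dense sgNT region (rank 7098) and 0 with sgSETD8. UCP3, another uncoupling protein, had 3 dense sgNT and 2 dense sgSETD8 regions (best ranks 1574 and 531). In the sparse pair 14 had a region, 3 in both groups, 5 in sgSETD8 only (against 45.9% of all genes with a sparse region) and 6 in sgNT only (against 28.8%). HK2, the hexokinase that binds the outer membrane, had 2 regions in each dense table (best ranks 151 and 201), and 2 sparse sgNT and 0 sparse sgSETD8 regions. MCU, UCP2, UCP3 and HK2 were chosen as examples after their values were seen. Counts for this list go by name, and whether a region of another name covered the same place was not examined.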

How the data were processed

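H3K27ac CUT&Tag of 4 Kasumi-1 samples was used, 2 in each group by the sample titles. Per the submitters' processing notes, reads were trimmed with cutadapt and aligned with Bowtie2 to hg38, with no versions. How peaks were called, joined and annotated is not stated in these sources. Each table as the authors deposited it has 1 signal column, and dividing that by region width gives the density, whose scaling no source states. Tables were assigned to groups by the guide in their region identifiers, except the sparse sgNT table, whose identifiers name the cell line alone. Which of a group's 2 samples a table is was not resolved, and 0 value columns were left without a group. The tables hold no counts, so depth is unknown and intervals cover the counting of regions only.

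Members and lists were chosen with earlier results of these data known. One member is not reported here by name, and counts over the family include it. Overlaps used bedtools 2.31.1 at 1 bp or more, and shares have exact Clopper-Pearson 95% intervals. Density was compared at regions covering each other by at least 90%, less the median log2 ratio. Gene spans and promoters are from RefSeq on GRCh38.p14. Scripts were tested on simulated tables. Alternatives were a width of at least 500 bp, the best-ranked 5000 regions, merging within 12500 bp, a TSS within 50000 bp, a 50% cover, a 1000 bp gap, other centring, regions of at least 1000 bp, and leaving out each pair. Carrier names only and gene spans were added after seeing the data. Each member was accounted for, and described in full were members with a sparse region, with 1 of the 10 best-ranked regions of a dense table, with dense regions in 1 group, without counterpart or differing in number, and with the 3 highest or 3 lowest matched densities. Tables were read with pandas 2.3.3 and numpy 2.4.6 under Python 3.11.15, intervals came from scipy 1.17.1, and plots from matplotlib 3.10.9.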

Additional observations from a re-analysis of the deposited data

How the results depend on the processing

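The region ratios stayed within their counting intervals under every alternative run, but the sparse log2 ratio turned from 0.29 to -0.42 for regions of at least 500 bp, -0.81 within 50000 bp of the TSS and -0.42 for carrier names only. Sparse sgSETD8-only names went from 5 to 3 under each of these 3 settings and to 2 by gene span. By gene span the sparse sgNT-only count was 3 and the dense sgSETD8-only count 1. Leaving out a pair gave region ratios of -0.11 and 0.29, pooled one-group names of 3 to 5 in sgSETD8 and 4 to 5 in sgNT, and shares without counterpart of 37.0% to 77.8% in sgNT and 36.0% to 81.8% in sgSETD8. Without centring, the median log2 density ratio of the 2 matched regions was -0.34 instead of -0.072. At 50% cover that median was 0.079 over 9 regions, on the other side of 0 and within the SD. Asking for 50% of a region to be covered raised the dense shares without counterpart to 51.9% in sgNT and 56% in sgSETD8, and a width of at least 500 bp lowered them to 25% and 21.1%. The carrier-name and gene-span readings were chosen after seeing the data. No sparse family region was matched at 90% cover, so no sparse density ratio could be had at that setting. No paired analysis was possible because the result comes from no test and the labels give no replicate numbers. Ratios were taken within the sparse and the dense pair of tables. The identifiers of both dense tables hold the number 1, and no label says that it marks a shared culture or day. Depth is unknown, so a missing region cannot be told apart from one under the calling threshold.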
